A study of Mus musculus with 3 samples.

Results

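The cells described here were T cells of mouse liver with Foxp3 transcript, which marks regulatory T cells. They were chosen by their own counts: at least 1 UMI (unique molecular identifier, a tag that marks a captured RNA molecule) of Foxp3, at least 1 UMI summed over Cd3d, Cd3e and Cd3g, no UMI of Cd8a, Cd8b1 or Cd79a, and at most 2 UMIs summed over the Kupffer cell genes Clec4f and Vsig4. Cells had 200 to 4000 detected genes and at most 25% mitochondrial UMIs. The rule found 49 cells among the 23346 kept of 30734 called cells in one library and 250 among the 19625 kept of 21601 in the other, 299 in all. The cells they were set beside, called Foxp3-negative CD4 T cells below and Foxp3 = 0 Cd4 cells in the plots, met the same conditions with no Foxp3 UMI and at least 1 Cd4 UMI, and numbered 996 and 620.

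The study asked how Chi3l1, a secreted chitinase-like protein (gene Chil1), acts on liver macrophages in mice with diet-induced fatty liver disease. Liver cells of C57BL/6J mice were captured on microwells (BD Rhapsody) for whole-transcriptome sequencing. The table of the first library was matched by elimination to the sample titled MCD. That table is named WT and its header names the library APAP0h. The study's methods describe wild-type mice on a normal chow diet for 16 weeks. The sources therefore disagree on this library, and it is called the MCD-titled library here. The other, the HFHC pool, mixed wild-type and Chil1-/- mice fed a high-fat, high-cholesterol diet for 16 weeks, and its cells carry no genotype in the table used. The labels name parenchymal cells and the methods non-parenchymal cells. There was 1 library on each side, and the genotypes within the pool were not separated. Diet, genotype, capture and sequencing therefore cannot be told apart, and no test between conditions was possible. Intervals below are exact 95% intervals that cover counting error only.

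Regulatory T cells are CD4 T cells that restrain immune responses. The transcription factor FOXP3 holds their programme in place, and they take up IL-2 through the receptor chain CD25 (Il2ra) and engage CD80 and CD86 on antigen-presenting cells through CTLA-4. Cells that settle in tissues often carry the IL-33 receptor ST2 (Il1rl1), KLRG1 and the integrin chain CD103 (Itgae) and can make amphiregulin and IL-10, whereas circulating cells keep CCR7, the chemokine receptor that takes them into lymph nodes.

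The Foxp3+ T cells held 124341 UMIs in the MCD-titled library, with a median of 1898 per cell, and 954806 UMIs in the HFHC pool, with a median of 3140. Median mitochondrial shares were 7.78% and 6.81%. Foxp3-negative CD4 T cells were as unequal in depth, with medians of 2114 and 3264 UMIs, so most shares of cells with a UMI are also given after thinning every cell to 1000 UMIs. This left 42 and 249 Foxp3+ T cells and 937 and 619 Foxp3-negative CD4 T cells. The libraries shared 756 cell numbers, and 10 Foxp3+ T cells of the pool had a number that also occurred in the other table, but 0 Foxp3+ T cells of the 2 libraries shared a number. A doublet caller marked 4 Foxp3+ T cells of the MCD-titled library and 17 of the pool, which were kept.

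Foxp3 lies on chromosome X from 7579676 to 7595243 (GRCm38). Of 62 cells with a Foxp3 UMI in the MCD-titled library and 339 in the pool, 61 and 323 passed the limits on genes and mitochondrial UMIs. A further 6 and 41 had no Cd3 UMI, and of these 2 and 21 had a T cell receptor constant-region UMI. The Cd8 limit removed 1 and 23 cells, 14 of the latter with exactly 1 Cd8 UMI, the Cd79a limit removed 4 and 10, 1 pool cell by both limits, and the Kupffer cell limit removed 1 and 0. Foxp3+ T cells carried 1 to 10 Foxp3 UMIs with a median of 2 in the MCD-titled library and 1 to 23 with a median of 5 in the pool. Just inside the threshold, 20 and 28 cells had a lone Foxp3 UMI, and just outside it were the Foxp3-negative CD4 T cells. Summed, Foxp3 stood at 1142 CPM (counts per 1000000 UMIs; 962 to 1346) and 1484 CPM (1408 to 1563), values the rule itself set.

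**Figure D1:**
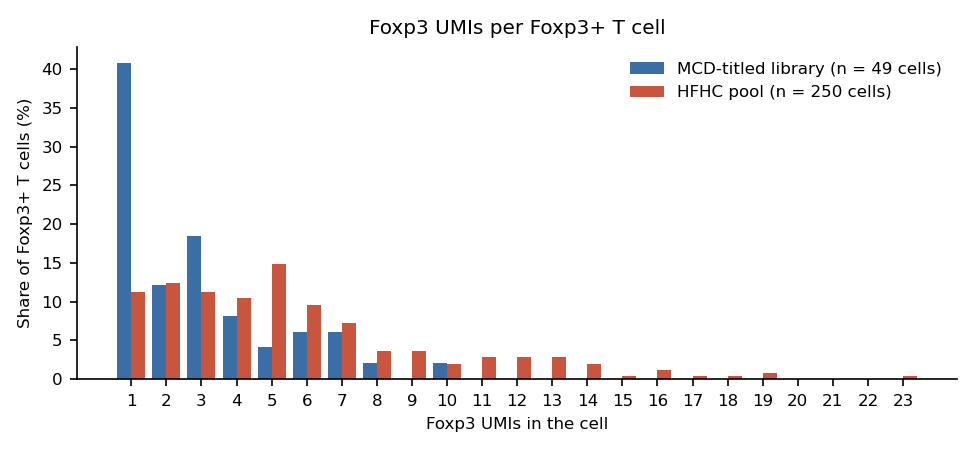
Foxp3 UMIs per Foxp3+ T cell (x axis) against the percentage of these cells (y axis) in the MCD-titled library (49 cells) and the HFHC pool (250 cells). Cells with 1 UMI, the lowest count the rule allowed, numbered 20 and 28, and the medians were 2 and 5 UMIs.

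The label was read against genes the rule did not use. Cd4, the co-receptor for MHC class II, had a UMI in 35 of 49 cells (71.4%) and in 186 of 250 (74.4%), and a T cell receptor constant-region UMI was found in 47 and 249. At least 1 of 6 regulatory T cell genes other than Foxp3 was detected in 47 of 49 cells (95.9%) and in 244 of 250 (97.6%), and in 556 of 996 (55.8%) and 443 of 620 (71.5%) of Foxp3-negative CD4 T cells. After thinning these shares were 73.8% and 90.4% of Foxp3+ T cells and 36.6% and 41.5% of Foxp3-negative CD4 T cells. Foxp3 was rare in B cells with no Cd3 UMI and in CD8 T cells with no UMI of Cd4 or Cd79a. These limits also keep out some cells that carried Foxp3. Among kept pool cells with Foxp3 and Cd3, 23 had a Cd8 UMI and 10 a Cd79a UMI. B cells (median 1422 UMIs in the MCD-titled library and 2646 in the pool) had a Foxp3 UMI in 0 of 1697 cells of the former, which allows a share of up to 0.177% by the limit of 3 counts, and in 1 of 1084 of the latter (0.0923%). CD8 T cells (median 2136 and 3689 UMIs) had one in 0 of 429 and 6 of 1017 (0.590%). Of T cells with a Cd4 UMI, by contrast, 35 of 1031 (3.39%) and 186 of 806 (23.1%) had one.

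Foxp3+ T cells made up a larger share of CD4 T cells in the HFHC pool. They were 49 of 1045 CD4 T cells (4.69%, 3.49 to 6.15) in the MCD-titled library and 250 of 870 (28.7%, 25.7 to 31.9) in the pool. The rule asked for a Cd4 UMI on the Foxp3-negative side only, which raises these shares. With a Cd4 UMI required on both sides, Foxp3+ T cells made up 3.39% and 23.1%. As shares of all kept cells with a Cd3 UMI they were 1.22% and 7.63%, and as shares of all kept cells 0.210% and 1.27%. With the rule applied again after thinning to 1000 UMIs, the shares were 27 of 585 (4.62%) and 171 of 506 (33.8%). Cells that lost their Cd4 UMI left only the Foxp3-negative side, so these shares are no control for depth. Among T cells with a Cd4 UMI before thinning, 2.37% and 16.4% had a Foxp3 UMI after it. The make-up of the other CD4 T cells differed too: 71.8% of Foxp3-negative CD4 T cells in the MCD-titled library and 49.0% in the pool had a UMI of Zbtb16, Klrb1c or Cxcr6, genes typical of natural killer T cells, against 4.08% and 16.4% of Foxp3+ T cells. With those cells taken out of the Foxp3-negative side, the shares were 14.8% (11.2 to 19.2) and 44.2% (40.0 to 48.4). The 2 and 41 Foxp3+ T cells with these genes stayed in, which raises these shares. With 1 library on each side, how much of this difference belongs to diet, genotype or capture cannot be told apart.

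Levels in Foxp3+ T cells were next set against Foxp3-negative CD4 T cells of the same library, as log2 ratios of CPM after 1 UMI was added to each side. A gene was measured when the sides held at least 20 UMIs together, and a ratio of at least 2-fold was counted as higher or lower. The cells were split on Foxp3, so these are descriptions without a test. Of 8885 genes measured in the MCD-titled library 15.4% were higher and 6.90% lower, with a median over all genes of 0.22, and of 9797 in the pool 5.72% were higher and 4.85% lower, with a median of 0.05. Scaling each library by its median ratio gave 885 higher and 884 lower genes in the MCD-titled library in place of 1364 and 613, and UMIs added in proportion to each side's total gave 816 and 1652, so list medians there between 0 and 0.22 have no settled sign. The other comparison used below was against Foxp3-negative CD4 T cells without Zbtb16, Klrb1c or Cxcr6. It left out 715 of the 996 in the MCD-titled library and 304 of the 620 in the pool. In it 9.19% of 5168 measured genes were higher and 6.77% lower in the MCD-titled library. In the pool 5.97% of 8775 were higher and 4.43% lower. These cells still held other cells' RNA. In the MCD-titled library S100a8 and S100a9 stood at 677 and 768 CPM in them. All 4 neutrophil markers summed to 1295 CPM in the full Foxp3-negative side there. No value below combines this setting with leaving out cells rich in markers of endothelial or myeloid cells. The 49 cells of the MCD-titled library were few and held few UMIs in all, 3 UMIs in them being 24.1 CPM against 3.14 CPM in the pool. Genes picked in one library were therefore read in the other: of 301 genes higher in the MCD-titled library with at least 10 UMIs, 43 (14.3%) were past 2-fold in the pool, where 4.24% of the genes measured in both were. Of 366 chosen in the pool, 139 (38.0%) were higher in the MCD-titled library, against 15.2% of all.

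Genes that define regulatory T cells were higher almost throughout. Of 9 measured list members in the MCD-titled library 7 were higher and 0 lower, with a median log2 ratio of 2.72, and of 12 in the pool 11 were higher and 0 lower, with a median of 2.09. Ikzf2, which encodes the transcription factor Helios, stood at 1150 CPM in Foxp3+ T cells and 77.5 CPM in Foxp3-negative CD4 T cells of the MCD-titled library, and at 1440 and 211 CPM in the pool. Ctla4 stood at 329.7 and 11.2 CPM in the MCD-titled library, a log2 ratio of 4.86, and at 464 and 112 CPM in the pool, a ratio of 2.04. The log2 ratio of pool over MCD-titled library for Ctla4 was 0.46 in Foxp3+ T cells and 3.28 in Foxp3-negative CD4 T cells. Of the latter 2.21% and 20.2% had a Ctla4 UMI. Regulatory T cells whose Foxp3 was missed would fall on this side, and their part in the ratios was not tested. Capg, an actin-capping protein, had ratios of 4.09 and 2.29. Izumo1r, the folate receptor 4 gene, had ratios of 1.32 and 2.01, and Tnfrsf18, the co-stimulatory receptor GITR, had 1.09 and 1.68.

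The measured list members not past 2-fold in the MCD-titled library were Il2ra and Socs2, and in the pool Socs2. Socs2, a suppressor of cytokine signalling singled out after its values were seen, had ratios of -0.97 and -0.50, or 0.73 and 1.06 against Foxp3-negative CD4 T cells without natural killer T cell genes. Il2ra stood at 257 CPM in Foxp3+ T cells and 194 CPM in Foxp3-negative CD4 T cells there, a log2 ratio of 0.45 (-0.15 to 0.93), and at 172 and 69.8 CPM in the pool, a ratio of 1.30 (0.98 to 1.62). The Foxp3-negative side of this ratio held many cells with natural killer T cell genes. Set against Foxp3-negative CD4 T cells without those genes, the Il2ra ratios were 2.49 and 3.32. Itgae was measured in the pool alone. There it stood at 345 CPM against 8.57 CPM, a ratio of 5.26, while in the MCD-titled library 8 UMIs in Foxp3+ T cells and 7 in Foxp3-negative cells were too few to be measured.

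Many suppressive molecules were higher in Foxp3+ T cells. Of 9 measured in the MCD-titled library 5 were higher and 3 lower (median 1.51), and of 13 in the pool 8 were higher and 0 lower (median 1.18). Against Foxp3-negative CD4 T cells without natural killer T cell genes, 4 of 6 and 9 of 13 were higher and 0 lower in either library. Nt5e (CD73), which makes adenosine from AMP, stood at 129 and 29.0 CPM and at 163 and 55.7 CPM, ratios of 2.22 and 1.55. Its partner Entpd1 (CD39), which breaks down ATP, stood at 32.2 and 82.5 CPM in the MCD-titled library, where it had 4 UMIs in Foxp3+ T cells, a ratio of -1.04 (-3.25 to 0.02), and at 117 and 53.1 CPM in the pool, a ratio of 1.14. Fgl2, a secreted fibrinogen-like protein, likewise stood at 105 and 340.3 CPM (-1.60) in the MCD-titled library and 450.4 and 199 CPM (1.18) in the pool. Without cells carrying natural killer T cell genes on the Foxp3-negative side, the Entpd1 ratio in the MCD-titled library was 0.38 and the Fgl2 ratio -0.14. Lgals1, the galectin-1 gene, had ratios of 1.70 and 0.42. Gzmb, the granzyme B gene, had ratios of 1.51 and 0.06, and its 48 UMIs in the MCD-titled library lay in 5 cells. Without cells carrying natural killer T cell genes on the Foxp3-negative side, the Gzmb ratios were 2.44 and 1.96. Il10, the gene of an anti-inflammatory cytokine, had 1 UMI in Foxp3+ T cells of the MCD-titled library, and in the pool it stood at 77.5 CPM against 5.14 CPM.

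Co-stimulatory and TNF-family receptors were higher in Foxp3+ T cells of both libraries, with 7 of 10 higher and 0 lower in the MCD-titled library (median 1.30) and 7 of 12 higher and 0 lower in the pool (median 1.21). Against Foxp3-negative CD4 T cells without natural killer T cell genes these counts were 3 of 8 higher and 0 lower (median 0.79) and 5 of 12 higher and 1 lower (median 0.78). Tnfrsf4 (OX40) stood at 314 CPM against 6.63 CPM in the MCD-titled library, a log2 ratio of 5.51, and at 430.5 against 91.7 CPM in the pool, a ratio of 2.23. Icos, a co-receptor of the CD28 family, had ratios of 1.29 and 1.22 and stood at 603 and 708 CPM in Foxp3+ T cells. Tnfrsf9 (4-1BB), singled out after its values were seen, stood at 24.1 CPM, which is 3 UMIs, and 15.3 CPM in the MCD-titled library and at 281 and 26.1 CPM in the pool, where its ratio was 3.41.

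**Figure D2:**
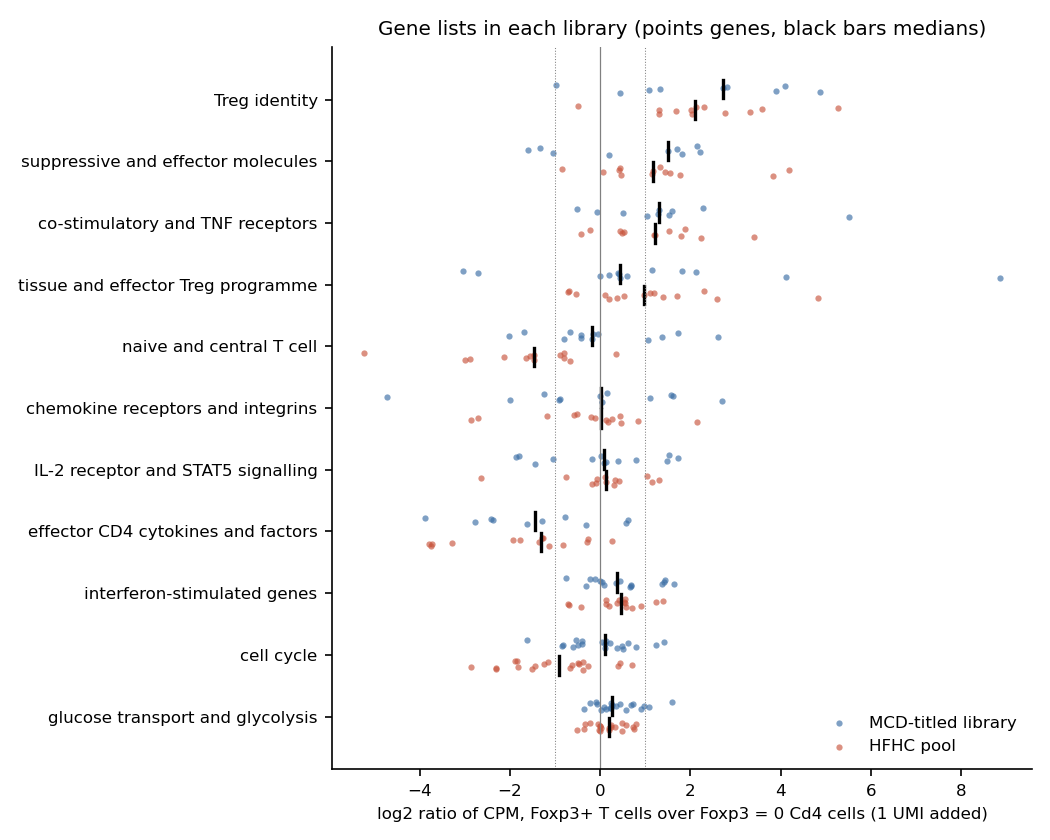
Log2 ratio of CPM, Foxp3+ T cells over Foxp3-negative CD4 T cells with 1 UMI added (x axis), for the measured genes of each list (y axis). Each point is a gene, black bars are medians, and dotted lines mark 2-fold. The regulatory T cell identity list had the highest medians, 2.72 in the MCD-titled library and 2.09 in the HFHC pool, and the naive and central T cell list stood at -0.19 and -1.46.

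Some genes of tissue-resident regulatory T cells stood higher in the Foxp3+ T cells of both libraries, with more members measured in the deeper pool. Of 13 measured in the MCD-titled library 5 were higher and 2 lower (median 0.45). Over all genes there 15.4% were higher and 6.90% lower (median 0.22). Of 15 in the pool 7 were higher and 0 lower (median 0.97), where 5.72% and 4.85% of all genes were (median 0.05). Il1rl1 stood at 185 CPM in Foxp3+ T cells of the MCD-titled library with 0 UMIs in the 996 Foxp3-negative CD4 T cells, at least 149-fold higher, and at 99.5 against 16.3 CPM in the pool, a log2 ratio of 2.59. Klrg1, an inhibitory receptor, stood at 193 against 11.2 CPM and at 156 against 5.14 CPM, ratios of 4.11 and 4.82. Maf, a transcription factor that drives Il10, stood at 957 against 736 CPM (0.39) and at 1498 against 762 CPM (0.97). Against Foxp3-negative CD4 T cells without natural killer T cell genes its ratios were 1.19 and 1.32. Areg, the amphiregulin gene, had 0 UMIs on either side in the MCD-titled library and stood at 76.5 against 3.86 CPM in the pool, a ratio of 4.18, which was at least 3.17-fold above the 3-UMI floor of the Foxp3+ T cells in the other library. Areg is named here after its values were seen.

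The pool's own leading genes, chosen after their values were seen, were Itgae, Klrg1, Src, Ccr3, Neb, Penk, Areg, Ncmap, Il10, Lrrc32, Lyve1, Tnfrsf9, Ikzf4, Flt1 and Rin2. Only 6 of these 15 were measured in the MCD-titled library, and 4 of the 6 were past 2-fold there. Penk, the proenkephalin gene, stood at 184 CPM in Foxp3+ T cells of the pool, a log2 ratio of 4.30 over its Foxp3-negative CD4 T cells, with 0 UMIs in Foxp3+ T cells of the MCD-titled library. Lyve1 and Flt1 are endothelial genes. Endothelial markers summed to 488 CPM in Foxp3+ T cells of the pool against 119 CPM in its Foxp3-negative CD4 T cells, and 8 cells held more than 5 such UMIs each. With cells rich in markers of endothelial or myeloid cells left out, Flt1 and Lyve1 were no longer measured, whereas Itgae remained at 5.26, Penk at 4.06 and Areg at 3.85.

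**Figure D3:**
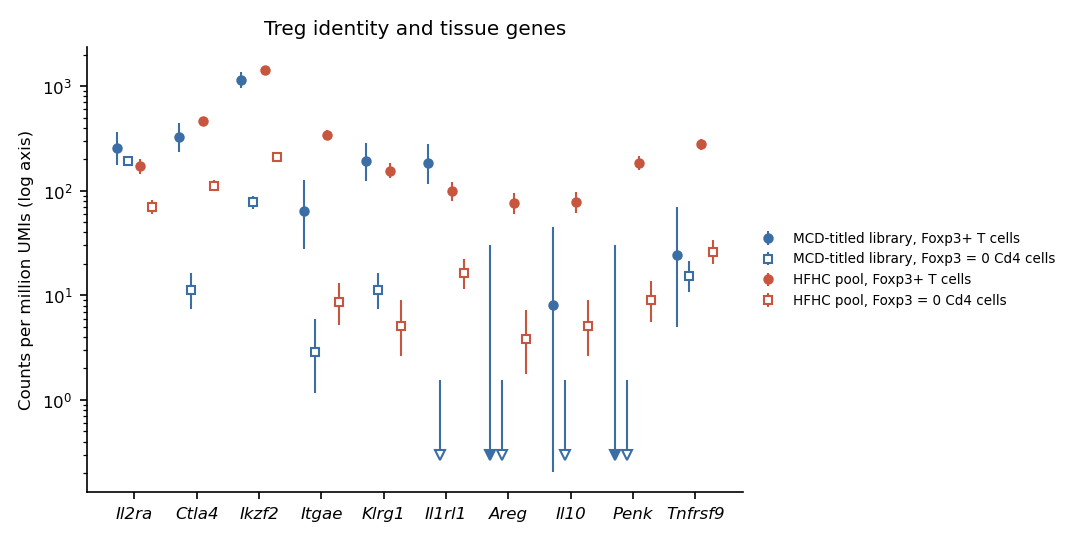
Level in CPM (log axis) of regulatory T cell genes (x axis) in Foxp3+ T cells (filled) and Foxp3-negative CD4 T cells (open) of the MCD-titled library (blue) and the HFHC pool (red). Lines are exact 95% intervals for counting error, and triangles mark 0 UMIs with the upper bound. Of the genes plotted Ikzf2 stood highest, at 1150 and 1440 CPM in Foxp3+ T cells, and Areg and Penk had 0 UMIs in those of the MCD-titled library.

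The leading genes of the MCD-titled library were Il1rl1, Tnfrsf4, Ctla4, Klrg1, Capg, Ikzf2, Nhsl2, Swap70, Tiam1, Trib1, Vim, S100a4, Rarg, Hipk2 and Nrp1. In the pool 14 of these 15 had a ratio of the same sign and 9 were past 2-fold, with a median of 1.30 and a range from -0.37 to 4.82. Nrp1, the neuropilin-1 receptor of thymus-derived regulatory T cells, stood at 306 against 47.3 CPM (2.72) and 191 against 77.6 CPM (1.30). Vim (vimentin) and S100a4, a calcium-binding protein of motile cells, had ratios of 3.12 and 2.96 in the MCD-titled library and of 0.71 and 0.21 in the pool.

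Genes of naive and central T cells, which recirculate through lymph nodes, stood lower in Foxp3+ T cells of the HFHC pool. There 0 of 13 list members were higher and 8 were lower (median -1.46), whereas in the MCD-titled library 4 were higher and 2 lower (median -0.19). Klf2, the transcription factor that turns on lymph node homing genes, stood at 579 against 228 CPM (1.36) in the MCD-titled library and at 165 against 522 CPM (-1.65) in the pool. Its target S1pr1, the exit receptor for lymphoid organs, stood at 507 against 84.1 CPM (2.61) and at 175 against 303 CPM (-0.79). Foxo1, a factor upstream of Klf2, had ratios of 1.72 and 0.34. Il7r, the receptor for the survival cytokine IL-7, had ratios of -0.42 and -1.56.

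The choice of Foxp3-negative cells moved these ratios. Against Foxp3-negative CD4 T cells without natural killer T cell genes, 0 list members were higher and 8 lower in the MCD-titled library (median -1.44), and 0 were higher and 12 lower in the pool (median -1.98). The ratios of Klf2 were then -0.44 and -2.28 and those of S1pr1 0.68 and -1.52. Tcf7 and Ccr7, singled out after their values were seen, had ratios of -1.97 and -2.25 in the MCD-titled library and -3.62 and -3.95 in the pool in that setting.

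**Figure D4:**
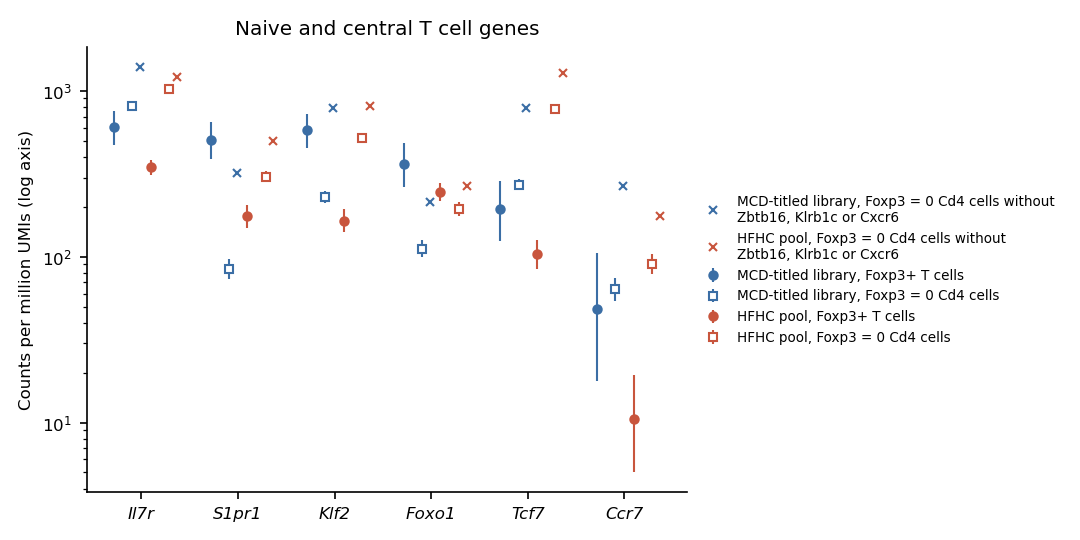
Level in CPM (log axis) of genes of naive and central T cells in Foxp3+ T cells (filled) and Foxp3-negative CD4 T cells (open squares) of the MCD-titled library (blue) and the HFHC pool (red). Crosses are Foxp3-negative CD4 T cells without Zbtb16, Klrb1c or Cxcr6, and lines are exact 95% intervals for counting error. Klf2 and S1pr1 stood at 579 and 507 CPM in Foxp3+ T cells of the MCD-titled library and at 165 and 175 CPM in those of the HFHC pool.

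Cytokines and factors of effector CD4 T cells were low in Foxp3+ T cells. Of 10 measured in the MCD-titled library 0 were higher and 6 lower (median -1.45, or -0.98 with genes at 0 set to their bound), and of 14 in the pool 0 were higher and 10 lower (median -1.32). Nkg7, a cytotoxic granule protein, stood at 40.2 against 717 CPM (-3.89) and at 167 against 402 CPM (-1.26). Ccl5, a chemokine of effector and memory T cells, stood at 298 against 1639 CPM (-2.42) in the MCD-titled library and at 1263 against 1508 CPM (-0.26) in the pool. Without natural killer T cell genes on the Foxp3-negative side, Nkg7 had ratios of -2.10 and 0.27 and Ccl5 of -1.49 and 0.52, so in the pool neither was lower, and 3 of 3 and 7 of 12 measured list members were lower. Ifng, the interferon gamma gene, had 0 UMIs in Foxp3+ T cells of the MCD-titled library and stood at 14.7 against 211 CPM in the pool. Il4, the type 2 cytokine gene, had 0 UMIs in Foxp3+ T cells of both libraries, at least 2.27-fold and at least 4.50-fold lower than in Foxp3-negative CD4 T cells. Without natural killer T cell genes, the Foxp3-negative side held Il4 at 18.2 CPM in the MCD-titled library and at 0 CPM in the pool. The former is below the 3-UMI floor of 24.1 CPM in Foxp3+ T cells, so Il4 was not measured as lower in that setting. Ifng then stood at 7.28 and 70.2 CPM on the Foxp3-negative side, with a ratio of -2.18 in the pool. Ifng and Il4 are named after their values were seen.

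The genes furthest below Foxp3-negative CD4 T cells in the MCD-titled library were Klrb1c, Sema4a, Dusp6, Cxcr6, Tcrg-C4, Gm36723, Cd160, F2r, Dnase1l3 and Tcrg-C1, and 9 of these 10 had the same sign in the pool, 7 of them past 2-fold. Klrb1c, the natural killer receptor NK1.1, had 0 UMIs against 276 CPM, at least 11.4-fold lower, and stood at 7.33 against 67.7 CPM in the pool. Cxcr6, which holds T cells in liver sinusoids, stood at 24.1 against 841 CPM (-4.71, -7.40 to -3.57, on 3 UMIs) and at 93.2 against 617 CPM (-2.71). Tcrg-C1, a gamma delta receptor gene, has close copies among the other gamma constant genes, so its count is uncertain. Markers of monocytes and neutrophils were also higher in Foxp3-negative CD4 T cells. They summed to 1001 and 1295 CPM there and to 209 and 233 CPM in Foxp3+ T cells of the MCD-titled library. In the pool they summed to 887 and 231 CPM there and to 509 and 16.8 CPM in Foxp3+ T cells. The part of these markers in the ratios was not tested beyond leaving out the cells that held most of them.

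Among the genes of IL-2 signalling, which regulatory T cells depend on, 3 of 13 were higher and 4 lower in the MCD-titled library (median 0.08), and 3 were higher and 1 lower in the pool (median 0.14). Over all genes 15.4% were higher and 6.90% lower in the former, and 5.72% and 4.85% in the latter. Without natural killer T cell genes on the Foxp3-negative side, 1 of 12 was higher and 1 lower (median 0.26) in the MCD-titled library. In the pool 3 of 13 were then higher and 1 lower (median 0.25). Pim1, a kinase induced by STAT5, stood at 1874 against 649.6 CPM (1.53) and at 1404 against 686 CPM (1.03). Il2rb, the beta chain that IL-2 and IL-15 share, stood at 748 against 2054 CPM (-1.44) in the MCD-titled library and at 899.7 against 729 CPM (0.30) in the pool. Without natural killer T cell genes on the Foxp3-negative side, its ratios were 0.21 and 1.21. Bcl2, a survival factor, had ratios of -1.86 and -2.64, or -0.97 and -2.35 without natural killer T cell genes on the Foxp3-negative side. The NF-kB subunits and partners of FOXP3 had 3 of 18 higher and 0 lower in the MCD-titled library, and 0 higher and 1 lower in the pool. Chemokine receptors and integrins had 4 of 12 higher and 3 lower in the first and 1 of 14 higher and 3 lower in the second. Without natural killer T cell genes on the Foxp3-negative side these were 3 of 10 higher and 1 lower, and 5 of 14 higher and 3 lower.

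T cell receptor signalling genes had medians of -0.19 and 0.10, with 2 of 15 higher and 2 lower in the MCD-titled library and 2 of 16 higher and 1 lower in the pool. T cell receptor and CD3 constant genes, 7 measured in each, had medians of -0.12 and -0.22. Immediate-early and heat-shock genes had 3 of 18 higher and 1 lower, and 0 of 20 higher and 1 lower. Beside each list of this paragraph, 15.4% of all genes were higher and 6.90% lower in the MCD-titled library. In the pool 5.72% were higher and 4.85% lower. Glucocorticoid-responsive genes had 0 of 11 higher and 3 lower, and 1 higher and 1 lower. Interferon-stimulated genes had 4 of 16 higher and 0 lower in the MCD-titled library and 2 higher and 0 lower in the pool, with medians of 0.38 and 0.47. These were 4 of 15 higher and 0 lower (median 0.79) and 2 of 16 higher and 1 lower (median 0.59) without natural killer T cell genes on the Foxp3-negative side. In that setting 9.19% and 5.97% of all genes were higher and 6.77% and 4.43% lower. Iigp1, an interferon-inducible GTPase, was past 2-fold in both libraries.

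Glucose transport and glycolysis genes had 2 of 20 higher and 0 lower in the MCD-titled library (median 0.26) and 0 of 21 higher or lower in the pool (median 0.19). Without natural killer T cell genes on the Foxp3-negative side, 4 of 17 were higher and 1 lower in the MCD-titled library (median 0.81), where 9.19% of all genes were higher in that setting. Fatty acid and cholesterol genes had 4 of 18 higher and 3 lower, and 2 higher and 0 lower. Apoptosis regulators had 5 of 15 higher and 1 lower (median 0.36) in the MCD-titled library, where 15.4% of all genes were higher, and 5 of 19 higher and 1 lower (median 0.42) in the pool, where 5.72% were. Without natural killer T cell genes on the Foxp3-negative side these counts were 1 of 11 and 2 of 18 higher, against 9.19% and 5.97% of all genes. The death receptor Fas and Bid, which links death receptors to mitochondria, were past 2-fold higher in both libraries against all Foxp3-negative CD4 T cells, and Fasl, the ligand of Fas, was past 2-fold lower in both. In Foxp3+ T cells of the MCD-titled library Bid stood at 24.1 CPM, which is 3 UMIs, and Fas at 56.3 CPM. Without natural killer T cell genes on the Foxp3-negative side neither was measured there, and in the pool the ratios were 0.98 for Bid and 0.77 for Fas.

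Cell cycle genes gave values that depended on depth, on the limit on detected genes and on the Foxp3-negative cells used. In the MCD-titled library 2 of 20 were higher and 1 lower (median 0.11), where 15.4% and 6.90% of all genes were. In the pool 0 were higher and 10 lower (median -0.91), where 5.72% and 4.85% of all genes were. Summed, the list stood at 4536 CPM against 3779 CPM in the MCD-titled library and at 1949 against 2502 CPM in the pool. A single cell of the MCD-titled library held 145 of its 564 UMIs (25.7%), and without it the sum was 3541 CPM. With no upper limit on detected genes on either side, the pool's median was -0.18, and after thinning every cell to 1000 UMIs it was 0.00. In the pool 8 cells with Foxp3 and Cd3 UMIs lay above that limit, counted before the other exclusions. Without natural killer T cell genes on the Foxp3-negative side, 6 of 14 were higher and 0 lower in the MCD-titled library (median 0.91) and 0 of 19 higher and 8 lower in the pool (median -0.51). Cells with both Mki67 and Top2a, markers of dividing cells, were 4 of 49 and 10 of 250 Foxp3+ T cells. Of Foxp3-negative CD4 T cells they were 45 of 996 and 16 of 620. After thinning they were 1 of 42 and 0 of 249 against 24 of 937 and 12 of 619. Within each library the intervals of the shares overlapped before and after thinning, so the order is not settled. Cells with at least 1 of these genes were 24.5% and 28.0% of Foxp3+ T cells and 8.94% and 14.2% of Foxp3-negative CD4 T cells, or 8 of 42 and 38 of 249 against 65 of 937 and 41 of 619 after thinning.

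Ighm, the immunoglobulin heavy chain mu gene and a marker of B cells, was detected in many Foxp3+ T cells. It stood at 772 against 221 CPM in the MCD-titled library, a log2 ratio of 1.82 (1.48 to 2.12), and at 975 against 253 CPM in the pool, a ratio of 1.95 (1.80 to 2.10). A UMI was found in 65.3% and 73.6% of Foxp3+ T cells and in 34.6% and 40.3% of Foxp3-negative CD4 T cells, or in 45.2% and 49.0% against 20.6% and 19.4% after thinning. Of other B cell genes in Foxp3+ T cells, Cd79b had 2 and 9 UMIs and Ms4a1 had 0 and 2, while Cd79a was set to 0 by the rule. Without natural killer T cell genes on the Foxp3-negative side the ratios were 1.11 and 1.61. The source of these UMIs was not tested, and Ighm was singled out after its values were seen.

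The Foxp3+ T cells of the libraries were also set against each other, and the same ratio in Foxp3-negative CD4 T cells or its range is given beside it, because library and condition cannot be told apart. Of 6989 genes measured, 10.7% were at least 2-fold higher in the HFHC pool and 9.31% lower. Hepatocyte markers summed to 1094 CPM in Foxp3+ T cells of the MCD-titled library and 2200 CPM in those of the pool. In Foxp3-negative CD4 T cells they summed to 1286 and 2089 CPM. Leaving out cells rich in other cells' markers did not use these genes, and their part in the ratios was not tested. The regulatory T cell identity list had a median log2 ratio of pool over MCD-titled library of 0.39 in Foxp3+ T cells and 1.08 in Foxp3-negative CD4 T cells. The suppressive list had medians of 0.91 and 0.40, and the tissue list of 0.59 and 0.64. The naive and central list had a median of -0.82 in Foxp3+ T cells, with 0 higher and 4 lower of 11, against 0.18 in Foxp3-negative CD4 T cells, or -0.41 in those without natural killer T cell genes. Immediate-early and heat-shock genes had medians of 0.54 and 1.03. Cell cycle genes had a median of -1.40 in Foxp3+ T cells, with 0 higher and 8 lower of 12, and of -0.67 in Foxp3-negative CD4 T cells, or -0.06 in those without natural killer T cell genes. With no upper limit on detected genes those medians were -0.47 and -0.49, and after thinning the Foxp3+ T cell median was -0.68.

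Among single genes, chosen after their values were seen, large ratios in favour of the pool belonged to Penk, at least 7.64-fold higher, Dnase1l3, Bhlhe40, Gnb2, Rgs16, Lpl and Dusp6. In Foxp3-negative CD4 T cells the log2 ratios were 4.51 for Penk, -1.19 for Dnase1l3, 0.25 for Lpl and -0.92 for Dusp6. With cells rich in markers of endothelial or myeloid cells left out, Dnase1l3 stood at 17.9 CPM in place of 183 CPM in Foxp3+ T cells of the pool and Lpl at 11.9 CPM in place of 94.3 CPM, and neither was measured between the libraries. Penk then had a log2 ratio of 4.47 and Dusp6 of 2.97. Both had 0 UMIs in Foxp3+ T cells of the MCD-titled library, so the size of these ratios depends on the added UMI. Bhlhe40, a transcription factor of activated T cells, was at least 6.73-fold higher in Foxp3+ T cells, and its log2 ratio in Foxp3-negative CD4 T cells was 2.04. Gnb2, a G protein subunit, and Rgs16, a regulator of G protein signalling, had log2 ratios of 3.81 (2.31 to 10.12) and 3.65 (2.15 to 9.96) in Foxp3+ T cells, each against 1 UMI in those of the MCD-titled library, and of 3.74 and 4.76 in Foxp3-negative CD4 T cells, so those genes differed between the libraries in both kinds of cell. The genes furthest in favour of the MCD-titled library were Uhrf1 (-3.47), Ly6c1 (-3.20), Birc5 (-3.16), Nrm (-3.06), Pclaf (-3.05), Stmn1 (-2.87), Gramd4 (-2.82) and Pmf1 (-2.69). Uhrf1, Birc5, Pclaf and Stmn1 act in DNA replication or division, and the single cell named above held 25.7% of the cell cycle list's UMIs in Foxp3+ T cells of that library. In Foxp3-negative CD4 T cells the ratios of these genes had the same sign and were nearer to 0, from -1.67 for Uhrf1 to -0.53 for Nrm. In those without natural killer T cell genes the range was from -1.44 for Ly6c1 to 0.66 for Uhrf1, so the sign of Uhrf1 turned, and Birc5 (-0.04) and Nrm (-0.09) were near 0. Chil1 itself had 0 UMIs in Foxp3+ T cells of both libraries.

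Detection of these genes was partial in both libraries, and at these depths a missed transcript cannot be told apart from a cell without the gene. At the cells' own depth Ikzf2 was found in 75.5% and 89.2% of cells, Ctla4 in 36.7% and 56.8% and Il2ra in 34.7% and 28.8%. After thinning these were 23 of 42 and 163 of 249 cells for Ikzf2, 8 of 42 and 81 of 249 for Ctla4 and 7 of 42 and 37 of 249 for Il2ra. At least 1 of the tissue genes Itgae, Klrg1, Il1rl1, Areg and Il10 was found in 32.7% of Foxp3+ T cells in the MCD-titled library and 63.2% in the pool, or 28.6% and 38.6% after thinning to 1000 UMIs. Of Foxp3-negative CD4 T cells 2.11% and 7.90% had one, or 1.07% and 3.88% after thinning. Ccr7 was found in 5 of 49 and 5 of 250 Foxp3+ T cells at their own depth and in 2 of 42 and 4 of 249 after thinning. After thinning, the intervals of the tissue gene shares overlapped between the libraries (15.7 to 44.6 and 32.5 to 44.9). Itgae alone was found in 12.2% and 44.4% of cells, or 4.76% and 22.1% after thinning. Klrg1 was found in 14.3% and 17.2% and Il1rl1 in 14.3% and 14.8%, but after thinning the pool had the lower share of each, at 14.3% and 10.4% for Klrg1 and 14.3% and 5.22% for Il1rl1. The thinned shares of the MCD-titled library were 6 of 42 cells each (5.43 to 28.5). That interval overlapped those of the pool, 6.94 to 14.9 for Klrg1 and 2.81 to 8.76 for Il1rl1, so the order is not settled.

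Other genes were also read by the number of Foxp3 UMIs in a cell. In the MCD-titled library Ikzf2 stood at 865 CPM in cells with 1 Foxp3 UMI, 948 CPM with 2 to 4 and 1770 CPM with at least 5, and Ctla4 at 262, 231 and 534 CPM. In the pool Ikzf2 stood at 1392, 1439 and 1448 CPM, and Ctla4 at 308, 435 and 501 CPM. Other genes took other courses: in the MCD-titled library Itgae stood at 101, 51.2 and 28.1 CPM, Il2ra at 241, 102 and 449.5 CPM and Klrg1 at 101, 25.6 and 506 CPM, on at most 18 UMIs a bin. The 3 bins held 20, 19 and 10 cells in the MCD-titled library and 28, 85 and 137 in the pool, and their median depths were 2044, 1654 and 3333 UMIs and 3006, 2652 and 3491 UMIs. These bins were made by the rule's own gene, so their levels are a description.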

How the data were processed

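Per the table headers and methods, the authors processed the reads with the BD Rhapsody WTA Analysis Pipeline 1.10.1 against GRCm38 (GENCODE vM19), and deposited UMI counts per cell and gene after RSEC correction of each tag. This collapses PCR copies, but free RNA and doublets remain. The processing notes also name Seurat. From these counts, cells were kept with 200 to 4000 genes and at most 25% mitochondrial UMIs, selected by the rule given above, and summed per library. Levels are CPM with exact Poisson intervals, shares have exact Clopper-Pearson intervals, and ratios have exact conditional binomial intervals. Ratios added 1 UMI to each side and needed 20 UMIs in all. The floor was 3 UMIs. Doublets were scored with Scrublet and kept. No condition had more than 1 library, so no p-value was computed. The ratio script was tested on simulated data. The members, gene lists and tests were chosen with earlier results of these data known. Named genes were the 4 given markers, the 15 highest and 10 lowest ratios in the MCD-titled library, and up to 6 genes per list with most UMIs. The extremes in the pool and between libraries were chosen after their values were seen. Alternatives were other limits, scalings, thinning and comparison cells. Leaving out cells with natural killer T cell genes, adding UMIs in proportion to totals, and leaving out cells rich in other cells' markers were chosen after seeing the data. Some genes that the rules would name are not reported here. The sample tags and the genotype of each cell were not analysed here. Python 3.11.15, NumPy 2.4.6, SciPy 1.17.1 and Scanpy 1.11.5 were used.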

Additional observations from a re-analysis of the deposited data

Results flagged for a closer look

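For 7 genes reported here the ratio of Foxp3+ T cells to Foxp3-negative CD4 T cells was past 2-fold in opposite directions in the libraries. With 1 library on each side the difference itself was not tested. Klf2 had log2 ratios of 1.36 in the MCD-titled library and -1.65 in the HFHC pool, Nrm of 1.47 and -1.06, and Gramd4 of 1.04 and -1.19. Entpd1 had -1.04 and 1.14, the first on 4 UMIs with an interval of -3.25 to 0.02, and Fgl2 -1.60 and 1.18. Dnase1l3 had -4.22 and 1.49, and Flt1 -1.11 and 3.25. Both of these had 0 UMIs in Foxp3+ T cells of the MCD-titled library, so their fitted ratios there depend on the added UMI. With cells rich in other cells' markers left out, Dnase1l3 stood at 0.54 in the pool and Flt1 was not measured. Against Foxp3-negative CD4 T cells without natural killer T cell genes, the ratios in the MCD-titled library were -0.44 for Klf2, -0.07 for Gramd4, 0.38 for Entpd1 and -0.14 for Fgl2, none of them past 2-fold, while Nrm stood at 1.84 there and -1.12 in the pool.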

How the results depend on the processing

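No paired analysis was possible because there was 1 library on each side. Of the main results and their alternatives, 1049 stayed within the limits set and 37 moved. Of the single-gene results counted, 955 did so, 63 moved and 3 reversed. These 3 are not every change of sign. Without natural killer T cell genes on the Foxp3-negative side, Klf2, Entpd1, Il2rb and Gramd4 also changed sign in the MCD-titled library. Where construction does not show the cause, the cause was not tested. Without cells carrying natural killer T cell genes in the comparison, the shares were 44.2% in the pool and 14.8% in the MCD-titled library, genes higher and lower in the latter numbered 475 and 350, and list medians were -1.44 (naive), 0.91 (cell cycle) and 0.81 (glycolysis) there and -0.31 (immediate-early) and 1.96 (suppressive) in the pool. Pool over MCD-titled library in Foxp3-negative CD4 T cells was then -0.41 (naive) and -0.06 (cell cycle), and Cxcr6 in the pool reversed to 6.69 by construction. Members with a Cd4 UMI gave shares of 23.1% and 3.39%, and mitochondrial UMIs up to 10% gave 33.1% in the pool. At least 2 Foxp3 UMIs left 29 cells (2.83%) in the MCD-titled library, with an immediate-early median of 0.60. Adding 0.5 UMI gave 1300 lower genes there, against 613. UMIs added in proportion to totals gave 816 higher and 1652 lower. At least 50 UMIs together gave 606 higher there and 286 higher and 269 lower in the pool. Median-ratio scaling gave 885 higher and a glycolysis median of 0.03 there. Thinning to 1000 UMIs gave 368 lower there and 371 higher in the pool, cell cycle medians of 0.61 and 0.00, and medians between libraries of -0.68 (cell cycle), 0.24 (T cell receptor signalling) and -0.52 (glycolysis). Thinning before the rule gave a pool share of 33.8%. With no upper gene limit cell cycle medians were -0.18 in the pool and -0.47 (Foxp3+) and -0.49 (Foxp3-negative) between libraries, and Chil3 in the pool reversed from -3.98 to 0.33. Without cells rich in other cells' markers, S100a8 in the MCD-titled library reversed from -2.30 to 0.20, and the cell cycle median in Foxp3-negative cells was -0.50. Few cells and lower depth per cell limit the MCD-titled library: 3 UMIs were 24.1 CPM in its Foxp3+ T cells and 3.14 CPM in the pool's.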
